A study of Mus musculus with 629 samples.

Results

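Of 400 single brain cells labelled as macrophages, 316 held at least 100000 gene counts, and 123 of these had the lectin gene Cd209f at 200 CPM (counts scaled to a common total per cell) or more. These 123 Cd209f-high macrophages are described here against the 103 macrophages of the same depth with 0 Cd209f counts, called 0-count cells. Another 90 macrophages lay between the limits. The cells were chosen by their measured Cd209f level, so its values are given as a description. The total behind the CPM is that of all genes, with the ERCC spike-ins and Rn18s (18S ribosomal RNA) left out.

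The series held 629 cells from the brains of adult C57BL/6 mice, and every cell was sequenced by SMART-seq2, a full-length plate method without molecular identifiers. The groups were Notch3 knockout (KO), heterozygous (Het) and wild-type (WT) mice, and all came from a reporter line in which SM22-Cre, driven by a smooth-muscle promoter, switches on tdTomato at the Rosa26 locus. The labels did not say which gate took the macrophages, and they named no animal. A pool here means all cells that share a genotype and a plate. There were 2 KO pools (plates 060s and 524s), 3 Het pools (056s, 524s and 529s) and 3 WT pools (059s, 529s and 530s), and ratios were formed inside each. Because cells could not be assigned to animals, no test was run, and intervals cover counting error only.

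Cd209 genes encode C-type lectins related to human DC-SIGN, which bind mannose- and fucose-bearing sugars on microbes and on host glycoproteins. The mouse family lies in a cluster of neighbouring genes. Cd209b (SIGN-R1) is best known on macrophages of the splenic marginal zone and Cd209a on dendritic cells. Macrophages along brain vessels and in the brain's borders take up material from the blood and cerebrospinal fluid through receptors such as Mrc1, Cd163 and Lyve1.

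The family lay on chromosome 8 in the order Cd209a, Cd209e, Cd209d, Cd209b, Cd209c, Cd209f and Cd209g, with no other protein-coding gene between them in RefSeq. The 300-base promoter windows of Cd209f and its neighbour Cd209g are shown because these genes moved together in the cells. Both are from RefSeq on build GRCm38.p6, written 5′ to 3′ on the gene's strand, and capitals mark a run of 180 bases that is identical in both.
Cd209f, chr8:4105715-4106014, minus strand: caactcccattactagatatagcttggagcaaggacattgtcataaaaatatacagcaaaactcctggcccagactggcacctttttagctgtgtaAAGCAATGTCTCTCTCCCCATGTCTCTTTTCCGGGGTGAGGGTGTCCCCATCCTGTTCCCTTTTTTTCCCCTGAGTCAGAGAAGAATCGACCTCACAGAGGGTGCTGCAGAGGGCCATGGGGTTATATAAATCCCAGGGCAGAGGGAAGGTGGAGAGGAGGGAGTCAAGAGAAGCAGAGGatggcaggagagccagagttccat
Cd209g, chr8:4134486-4134785, plus strand: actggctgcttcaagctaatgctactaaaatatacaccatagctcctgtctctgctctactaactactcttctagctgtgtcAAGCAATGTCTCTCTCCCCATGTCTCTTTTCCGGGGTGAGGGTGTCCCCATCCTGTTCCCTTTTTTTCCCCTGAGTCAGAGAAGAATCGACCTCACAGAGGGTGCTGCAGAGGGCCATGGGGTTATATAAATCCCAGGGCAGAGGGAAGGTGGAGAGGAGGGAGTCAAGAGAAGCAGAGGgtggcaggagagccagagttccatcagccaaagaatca
The run spanned bases 97 to 276 of the Cd209f window and bases 83 to 262 of the Cd209g window. Aligned over their whole length, the windows were 81.2% identical. The other 5 family promoters were 45.7% to 52.7% identical to that of Cd209f, and their longest shared run was 7 to 10 bases. Among 32851 promoters in the table, Cd209g was the only other one to share a run of at least 20 bases with Cd209f.

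Among 4 motifs sought on both strands, the AP-1 motif TGAGTCA lay in the shared run, at base 168 of the Cd209f window and base 154 of the Cd209g window. It was in no other family promoter and in 5.20% of all promoters. The TATA motif TATAAA was in the shared run and in the Cd209a window, and in 13.6% of all promoters. The PU.1 motif GAGGAAGT, present in 3.20% of promoters, was in none of the 7 family windows. The MAF half-site TGCTGA, present in 19.5%, was in those of Cd209a and Cd209d. The letters of no motif contain another, and a match is a description of the sequence.

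Cd209f itself ran from 215.9 to 12233 CPM in the 123 high cells, with a median of 1150 CPM. Of these cells 19 held 200 to 400 CPM, 31 held 400 to 1000 CPM and 73 held 1000 CPM or more. Of the 90 cells between the limits, 74 held under 20 CPM, 7 held 20 to 100 CPM and 9 held 100 to 200 CPM, and their median was 1 count. The fewest cells thus lay between 20 and 200 CPM. The nearest members inside it had 215.9, 233.6 and 235.2 CPM, and the nearest cells outside it had 163.0, 163.2 and 173.6 CPM. Every high cell held at least 37 Cd209f counts.

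**Figure D1:**
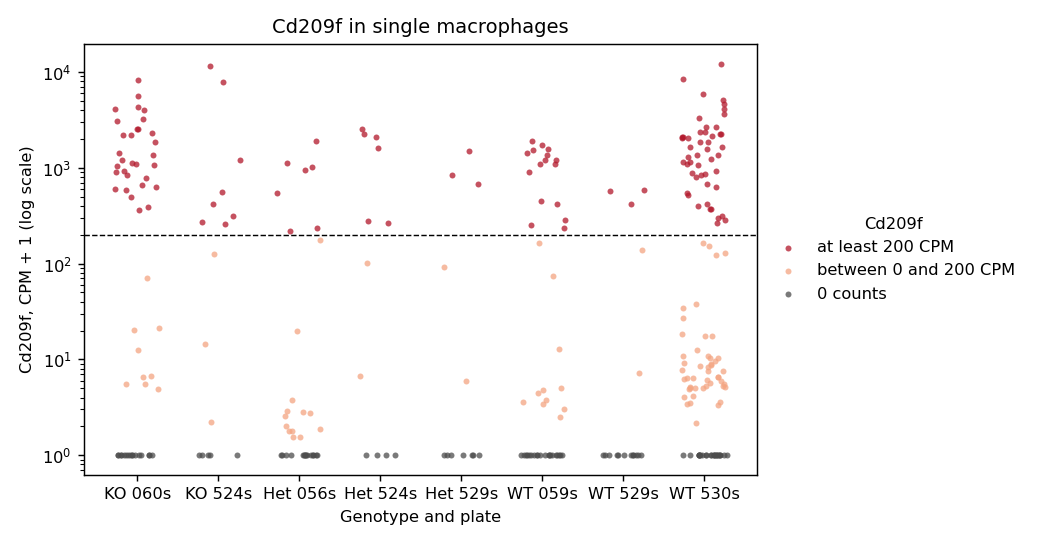
Cd209f in each of the 316 macrophages, as CPM + 1 on a log axis, by genotype and plate. Each point is 1 cell, the dashed line marks 200 CPM, and the high cells reach 12233 CPM while 74 of the 90 cells between the limits lie under 20 CPM.

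Levels within the high class differed among pools. The median Cd209f of high cells was 1194 CPM in KO 060s and 486 CPM in KO 524s. It was 954, 1861 and 839 CPM in Het 056s, 524s and 529s. In WT 059s, 529s and 530s it was 1145, 572 and 1351 CPM. The genotypes overlapped, and a single cell held 54.5% of the Cd209f counts of the 8 high cells of KO 524s.

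Over all pools the median gene count was 221856 in high cells and 263968 in 0-count cells, and within pools it was higher in high cells in 3 of 8, as in WT 059s at 420686 against 299934. The median number of genes over all pools was 3497 in high cells and 3590 in 0-count cells, but within pools it was higher in high cells in 7 of 8, as in Het 529s at 3760 against 3190. Rn18s took a median of 45.2% of gene counts in high cells and 43.3% in 0-count cells, and gene counts per ERCC count were 44.1 in high cells and 42.8 in 0-count cells. No doublet caller was run.

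The label of macrophage held for both classes. The summed level of 16 perivascular macrophage markers had a median of 100775 CPM in high cells and 106205 CPM in 0-count cells, against 52994 CPM in 184 cells labelled microglia of the same depth. Apoe made up most of this sum in both macrophage classes. Mrc1 alone had medians of 7197 CPM in high cells, 7363 CPM in 0-count cells and 3240 CPM in microglia. Homeostatic microglia markers summed to 19195 CPM in high cells and 18943 CPM in 0-count cells, against 66290 CPM in microglia. Tmem119, a defining microglial gene, had medians of 9.13 CPM in high cells, 8.46 CPM in 0-count cells and 5727 CPM in microglia. Notch3, the targeted gene, had counts in 1 of 123 high cells and 1 of 103 0-count cells, so it checked no genotype label here.

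The share of high cells was 54.2% of KO macrophages (39 of 72, exact 95% interval 42.0% to 66.0%), 27.1% of Het macrophages (16 of 59, 16.4% to 40.3%) and 36.8% of WT macrophages (68 of 185, 29.8% to 44.1%). In KO pools the share was 55.4% (31 of 56) on plate 060s and 50.0% (8 of 16) on plate 524s. Het pools gave 20.0% (7 of 35) on 056s, 50.0% (6 of 12) on 524s and 25.0% (3 of 12) on 529s. WT pools gave 34.0% (16 of 47) on 059s, 17.6% (3 of 17) on 529s and 40.5% (49 of 121) on 530s. Both KO pools lay at or above every other pool at this limit. With a limit of 400 CPM the share in KO 524s was 31.2%, below the 33.3% of Het 524s and the 34.7% of WT 530s, and with Rn18s kept in the total it was 26.3%.

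Plates shared by genotypes did not repeat the order of the sums. On plate 524s the share was 50.0% in KO and 50.0% in Het cells, with intervals of 24.7% to 75.3% and 21.1% to 78.9%. On plate 529s it was 25.0% in Het and 17.6% in WT cells, with intervals that reached up to 57.2% and 43.4%. No plate held both KO and WT macrophages in these pools, so genotype and plate cannot be told apart for that pair. Plate 530s held 121 of the 185 WT cells, and without it the WT share was 29.7%.

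Depth and sex also differed among pools, and their part in the shares was not tested. Median depth was 174902 gene counts in KO, 551469 in Het and 253440 in WT macrophages. With every cell thinned to 100000 counts the shares were 54.2% in KO, 25.4% in Het and 36.2% in WT. Xist, transcribed from the inactive X chromosome, summed to 596 CPM in KO 524s, 837 CPM in Het 529s and 745 CPM in WT 530s, which had no counts of the Y-linked Ddx3y. The other 5 pools held at most 2.48 CPM of Xist and 26.0 to 88.0 CPM of Ddx3y. The shares were 50.0%, 25.0% and 40.5% in the 3 pools with Xist and 17.6% to 55.4% in the rest.

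Any Cd209f count at all was found in 70.8% of KO, 55.9% of Het and 69.7% of WT macrophages. By pool this share ran from 29.4% in WT 529s to 80.2% in WT 530s, a different order from that of the high cells.

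**Figure D2:**
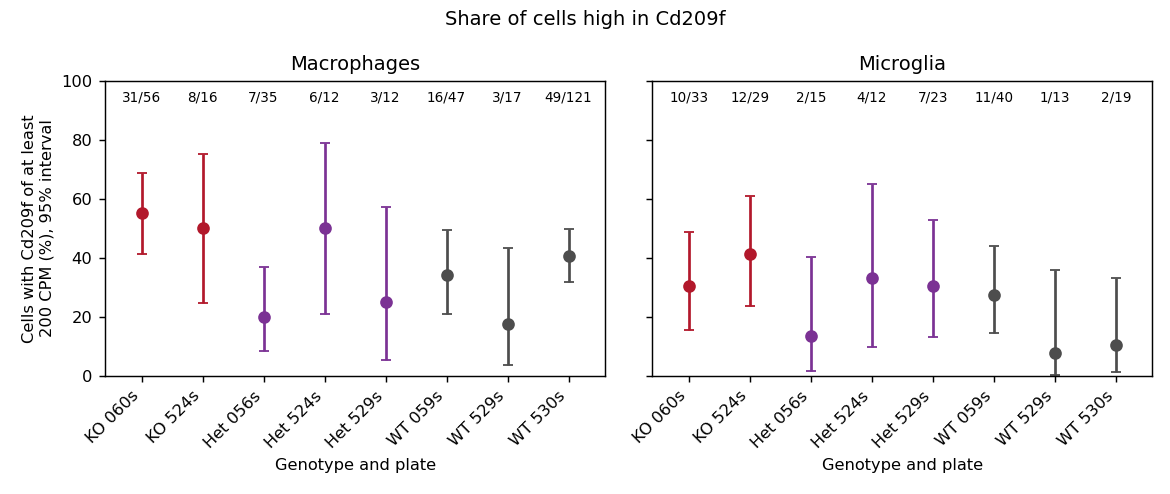
Share of cells with Cd209f of at least 200 CPM in each genotype and plate, for macrophages (left) and microglia (right), with exact 95% intervals and the cell numbers above. Among macrophages KO 060s is at 55.4%, KO 524s and Het 524s are both at 50.0%, and WT 529s is lowest at 17.6%.

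Cd209g, the lectin gene next to Cd209f, was higher in the high cells of every pool, and its lowest pool ratio was the largest among measured genes. Its summed level was 579 CPM in high cells of KO 060s, against 0.34 CPM in 0-count cells. In KO 524s it was 157 CPM in high cells, against 0 counts. In Het 056s and Het 524s the high cells held 296 and 262 CPM, and the 0-count cells held none. High cells of Het 529s held 439 CPM, against 1.69 CPM. In WT 059s the values were 222 CPM in high cells and 0.45 CPM in 0-count cells. In WT 529s high cells held 161 CPM, against 0 counts in 0-count cells. In WT 530s high cells held 303 CPM, against 7.63 CPM in 0-count cells. The summed levels of the classes did not overlap in any comparison of pools. The lowest was 157 CPM in high cells, and the highest in 0-count cells was 7.63 CPM. These sums leaned on single cells. One cell held 67.2%, 74.9% and 87.1% of the high cells' Cd209g counts in Het 056s, 524s and 529s. The top cell held 75.9% in WT 529s, 50.99% in KO 524s and 12.2% to 42.9% in the other pools. The median high cell held 1.57 CPM in Het 056s, 6.68 CPM in Het 524s and 7.497 CPM in KO 524s. In the other pools that median was 91.4 to 173 CPM.

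As a ratio of CPM + 5, the log2 difference of Cd209g averaged 5.57 ± 0.69 (SD over 8 pools) and ran from 4.61 in WT 530s to 6.77 in KO 060s. Where the 0-count cells held no Cd209g, a floor of 3 counts was used for the pool. The summed level of high cells was then at least 59.7-fold higher in KO 524s and 1459-fold in Het 056s. It was at least 72.2-fold higher in Het 524s and 180-fold in WT 529s. With all cells summed, Cd209g was at 324 CPM in high cells and 1.62 CPM in 0-count cells, a 199.8-fold difference. The sum of the 0-count cells rested on 62 counts, of which 82.3% came from 1 cell of WT 530s.

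Cell by cell, Cd209g had a count in 94 of 123 high cells, 21 of 90 cells between the limits and 10 of 103 0-count cells. All 50 macrophages with at least 200 CPM of Cd209g were Cd209f-high. The high cells were not uniform, since 29 of them had no Cd209g count, and 1 of these held 1802 Cd209f counts. The 29 cells without Cd209g had a median of 605 CPM of Cd209f, against 1352 CPM in the high cells with Cd209g. Among the 94 cells with both, Cd209g counts were a median of 16.8% of Cd209f counts, from 0.098% to 405%, and 5 cells had more Cd209g than Cd209f.

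**Figure D3:**
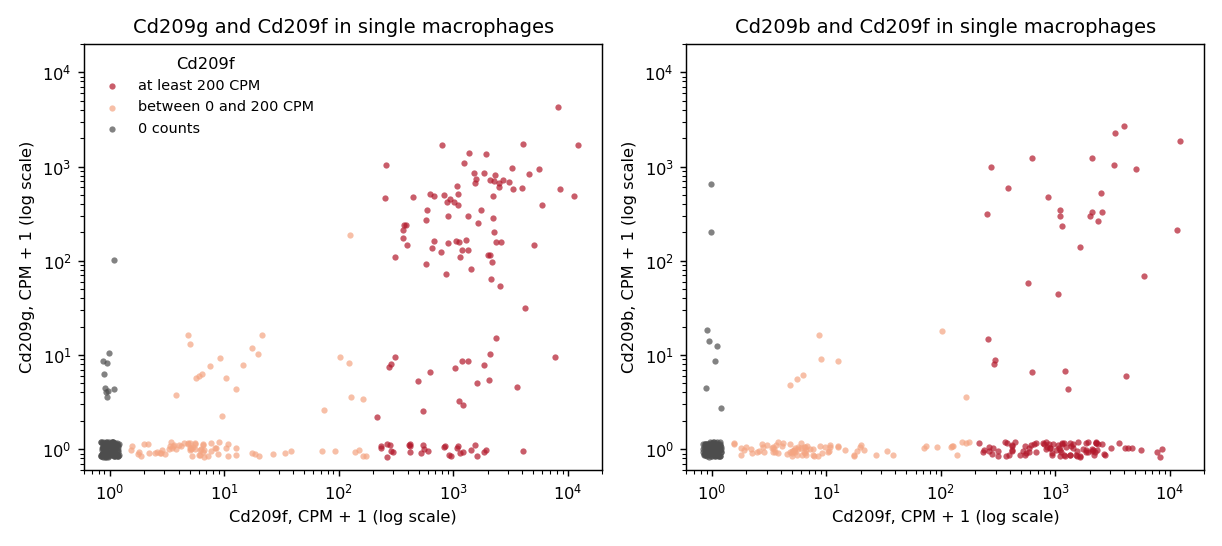
Cd209g (left) and Cd209b (right) against Cd209f in each macrophage, both as CPM + 1 on log axes, with a small random shift for values of 0. All 50 cells with at least 200 CPM of Cd209g and 20 of the 21 cells with at least 200 CPM of Cd209b lie among the Cd209f-high cells.

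Cd209f and Cd209g are close copies, and how the authors' counting treated reads that match both was not given in the sources used here. In GENCODE M21, 29.8% of 50-base windows of Cd209f transcripts also occurred in Cd209g, and 16.6% of Cd209g windows occurred in Cd209f. Their longest protein-coding transcripts, of 1186 and 1169 bases, were 89.5% identical with a longest identical run of 416 bases. The ratio of both counts spread from 0.098% to 405% among cells, as given above. Cd209b shared no 50-base window with any other gene.

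Cd209b was found in fewer cells and did not reach the detection limit of 20% of cells. It had counts in 31 of 123 high cells, 8 of 90 cells between the limits and 8 of 103 0-count cells. Of 21 macrophages with at least 200 CPM of Cd209b, 20 were Cd209f-high and 1 had 0 Cd209f counts. In KO 060s and KO 524s it summed to 227 and 186 CPM in high cells, against 1.03 CPM and 0 counts in 0-count cells. In Het 524s it was 106 CPM, all in 1 cell, against 0 counts. In Het 056s and Het 529s no high cell held a count, and the 0-count cells held 0.07 and 18.5 CPM. In WT 059s it was 35.4 CPM in high cells and 12.5 CPM in 0-count cells, with 94.0% of the latter's counts in 1 cell. In WT 529s and WT 530s high cells held 24.4 and 206 CPM, against none in 0-count cells. The log2 ratio thus ran from −2.23 in Het 529s to 5.40 in WT 530s, and it was above 0 in 6 of 8 pools. Of the 31 high cells with Cd209b, 27 also held Cd209g.

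The other members were rare. Cd209a had counts in 24 of 123 high cells and 15 of 103 0-count cells, Cd209c in 13 high and 3 0-count cells, and Cd209d in 6 high and 3 0-count cells. Cd209e had counts in 2 high cells and in none of the 103. At least 200 CPM was reached in 2 high cells for Cd209a and 1 for Cd209d, and in no cell for Cd209c or Cd209e.

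Few of all genes differed in the same direction in every pool. A gene was measured if its mean over both classes was at least 10 CPM. It also needed a count in at least 20% of all high and 0-count cells. Neither limit was set for each class alone, and Cd209g had a count in 9.71% of 0-count cells. Of 5879 measured genes, 15 (0.255%) were at least 2-fold higher in the mean of the 8 pools and higher in each. By the same rule 16 (0.272%) were lower. Cd209g was 1 of the 15. Without the limit of size, 23 genes (0.391%) were higher in each pool and 23 (0.391%) lower. If the sign in each of 8 pools fell at random, about that share of genes would be higher in each and about that share lower. The same sign in every pool is thus no result about a gene by itself. Without the demand on every pool, 253 (4.3%) were at least 2-fold higher in the mean and 365 (6.21%) lower. Over all measured genes the median ratio was −0.04 on the log2 scale, and a gene's ratio varied between pools with a median SD of 1.58. The smallest pools, Het 524s, Het 529s and WT 529s, held 6, 3 and 3 high cells.

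For Cd209g the lowest pool was at a log2 ratio of 4.61. For the other 14 higher genes the lowest pool lay between 0.02 and 0.41, close to no difference, although their means ran from 1.01 to 2.27. The next after Cd209g by that measure were Uck1, a kinase of uridine and cytidine, at 0.41, and Casc3, a subunit of the exon junction complex, at 0.38. Uck1 shared 17.5% and Casc3 10.3% of their 50-base windows with other transcripts, and both overlap other genes in GENCODE M21, as do Cops2, Fgfr1, Parp1, Phrf1 and Eaf1. Whether counting used strand was not given, so reads of overlapping genes may not be separable.

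**Figure D4:**
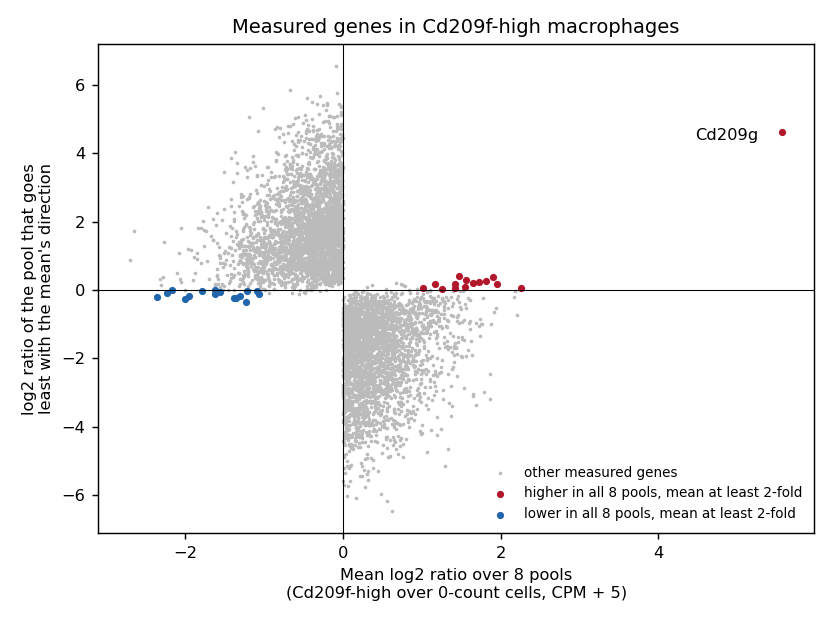
Mean log2 ratio (Cd209f-high over 0-count cells, CPM + 5) of the 5879 measured genes on the x axis, and on the y axis the ratio in the pool that goes least with that mean. Cd209g stands at 5.57 and 4.61, while the other 14 higher genes lie between 0.02 and 0.41 on the y axis.

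The genes with the next largest means above 0 had varied roles. Prkx, a serine/threonine kinase related to protein kinase A, averaged 2.27 ± 1.61 (SD over 8 pools), with counts in 22.8% of high cells and 23.3% of 0-count cells. Its level was 36.9 CPM in high cells of WT 530s, against 35.3 CPM in that pool's 0-count cells, and 102 CPM in high cells of Het 056s, against 0.34 CPM. Atg101, of the autophagy initiation complex, averaged 1.95 ± 1.42, and Casc3 averaged 1.90 ± 0.93. The nuclear pore protein gene Ranbp2 averaged 1.81 ± 1.24, the tropomyosin gene Tpm1 1.73 ± 1.62 and the splicing factor gene Srek1 1.65 ± 1.18.

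The zinc finger gene Zfp398 averaged 1.55 ± 1.27 and Uck1 1.47 ± 1.20. Ptprc, which encodes the leukocyte antigen CD45, averaged 1.42 ± 1.87. Its level was 223 to 612 CPM in high cells and 0 to 448 CPM in 0-count cells, so the pools overlapped, and its largest ratio came from Het 524s with 4 cells in the lower class. Cops2 of the COP9 signalosome, Hltf, a DNA helicase-like gene of replication forks, Atad1, which clears misplaced membrane proteins, and Oxr1, of oxidation resistance, averaged 1.01 to 1.42. In 13 of the 15 higher genes the cells between both limits lay between the other classes in mean CPM. These genes were chosen for a difference between those other classes. The share over all measured genes was not computed, so no gradient is read from this count.

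The lower genes showed the same weak pools. Fgfr1, a fibroblast growth factor receptor gene, averaged −2.36 ± 2.05, and Plcg2, a phospholipase of immune receptor signalling, −2.23 ± 1.69. Plcg2 was at 143 CPM in high cells of WT 530s, against 151 CPM in 0-count cells, and at 0 counts in high cells of Het 529s, against 77.5 CPM in 0-count cells. The polarity scaffold gene Lin7c averaged −2.17, Parp1, a sensor of DNA breaks, −1.95 and the myosin gene Myo1f −1.78. Sel1l, of endoplasmic reticulum degradation, lay between Lin7c and Parp1, at 105 CPM in high cells and 270.1 CPM in 0-count cells.

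The transcription genes Eaf1, Gtf2e2 (a subunit of TFIIE), Zfhx3 and Phrf1, the membrane protein genes Tmem43 and Tmem87b, the GDP-fucose synthase gene Gfus, the peptidase gene Dpp3 and Pbxip1 averaged −1.63 to −1.09. Across the lower genes the pool nearest to no difference was between −0.34 and 0.00. The cells between both limits lay in order for 9 of the 15 named, which were likewise chosen on the other classes. Without each gene's top cell in each class and pool, 5 genes were higher and 6 lower, and 2 and 1 of these were among the 15 and the 16, with Cd209g at a mean of 4.76. In that setting the mean was 0.55 for Prkx, 0.69 for Casc3, 0.13 for Hltf and 0.17 for Oxr1, and that of Eaf1 turned to 0.22. Some means also moved with a single pool. Without Het 524s the mean was 0.53 for Atad1 and 0.84 for Ptprc, and without Het 056s it was 0.75 for Hltf. Oxr1 was under the 2-fold limit without any 1 of 4 pools, lowest at 0.92 without WT 059s. Among the lower genes the mean of Myo1f was −1.15 without KO 524s. Without WT 529s the mean was −0.79 for Dpp3, −0.76 for Zfhx3 and −0.99 for Gtf2e2. Without Het 529s it was −1.06 for Tmem87b, −0.98 for Eaf1 and −0.95 for Gfus.

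Within pools, Cd209g also followed Cd209f most closely among the genes ranked, over all macrophages of sufficient depth. The Spearman correlation of their CPM was 0.80 and 0.46 in KO 060s and KO 524s, 0.66, 0.82 and 0.53 in Het 056s, 524s and 529s, and 0.56, 0.69 and 0.62 in WT 059s, 529s and 530s. These are 316 cells in pools of 12 to 121, and the cells of a pool share a plate and differ in depth. The mean over pools was 0.64. Of 5619 genes with a value in every pool, the ranking left out predicted genes, pseudogenes and ribosomal, mitochondrial and sex-linked genes. The next highest of those ranked was Aamp at 0.29, with pools from −0.15 to 0.66.

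Sap30, Ptprc, Hebp1, Cpt1a, Kmt5b, Cfl2, Gsto1 and Tmem131 followed at 0.26 to 0.29, and among these Sap30 and Cfl2 were above 0 in every pool. The lowest means in this ranking were those of Myo1f, Pwp1, Ubtf, Plek and Pbxip1, at −0.25 to −0.22. Correlations this weak in sparse counts are given as a description.

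None of the macrophage gene lists outside the Cd209 family had a member past the rule in either direction, against 0.255% and 0.272% of all measured genes. Each of these lists held at most 21 measured members. At those shares no call is the likely outcome, so its absence is no result about the lists. All 16 perivascular macrophage markers were measured, 6 with a mean above 0 and 10 below, and their median log2 ratio was −0.04, the same to 2 decimals as over all genes. The mannose receptor gene Mrc1 was at 7653 CPM in high cells and 8256 CPM in 0-count cells, averaged over pools. The haptoglobin-hemoglobin receptor gene Cd163 was at 1685 CPM in high cells and 1854 CPM in 0-count cells. The chemokine gene Pf4 was at 931 CPM in high cells and 988 CPM in 0-count cells. Lyve1, a hyaluronan receptor gene, was at 2691 CPM in high cells and 3009.9 CPM in 0-count cells, with pool ratios from −1.32 in Het 529s to 3.00 in KO 524s.

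Apoe, the apolipoprotein gene, was at 67827 CPM in high cells and 68092 CPM in 0-count cells. The sum of the perivascular list, most of it Apoe, had log2 ratios of −0.51 to 0.35 and was higher in 3 of 8 pools. Endocytic and scavenger receptors had a median of −0.10 over 19 measured members, complement genes −0.14 over 9, lysosomal genes −0.06 over 21, and iron and heme genes −0.07 over 13. Medians of cholesterol and lipid handling, coagulation and disease-associated microglia genes were each −0.03.

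No gene of antigen presentation passed the rule, which is the likely outcome for lists this short. MHC class II genes had a median of −0.04 over 5 measured members, and Cd74, the invariant chain, was at 78.6 CPM in high cells and 134 CPM in 0-count cells. H2-Aa, a class II chain, had counts in 51 of 123 high cells and 40 of 103 0-count cells. Its mean over both classes stayed under the limit of 10 CPM, at 4.17 CPM in high cells and 11.8 CPM in 0-count cells. MHC class I genes had a median of 0.05 over 12 members.

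The median was 0.17 over 5 Ms4a genes, 0.07 over 16 myeloid transcription factors and 0.07 over 8 growth factor and matrix genes. Csf1r and TGF-beta signalling stood at −0.17, the IL-4 and IL-10 response at −0.19 and the Notch pathway at −0.29. Immediate early genes were at −0.08 and inflammatory genes at −0.01. The 6 measured cell cycle genes had a median of 0.51, with sums from −0.59 in WT 059s to 0.65 in Het 529s.

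The interferon response had the largest median among these lists, 0.60, against −0.04 over all measured genes. Of its 12 measured members 10 were above 0 in the mean and none was past the rule. Irf7, a transcription factor of that response, was at 261 CPM in high cells and 110 CPM in 0-count cells, with pool ratios of −1.68 to 4.64, and it overlaps Phrf1 in GENCODE M21. Bst2, which tethers viruses, was at 326 CPM in high cells and 385 CPM in 0-count cells. The list's sum had ratios of 0.15 and 0.55 in the KO pools, 0.17, 1.32 and 2.22 in the Het pools and 0.09, −0.70 and 0.06 in the WT pools. It was higher in 7 of 8 pools, and the larger ratios were those of Het 524s and Het 529s, with 6 and 3 high cells. The median member's ratio was −0.46 in KO 060s and −0.17 in WT 529s. In Het 524s and Het 529s that median was 1.88 and 2.07, and in the other pools it was 0.11 to 0.48.

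Homeostatic microglia markers had a median of −0.27, against −0.04 over all measured genes, with 13 of 15 measured members below 0. Their sum had log2 ratios of −0.66 to 0.06, and Tmem119 ranged from −3.02 in KO 524s to 2.32 in Het 529s.

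Markers of other cell types differed in how far they were present. Of 11 monocyte and neutrophil markers only Csf3r, a cytokine receptor gene, was measured, at 145 CPM in high cells and 76.1 CPM in 0-count cells, and its ratio was above 0 in 7 of 8 pools. The monocyte marker Ccr2 was at 0.41 CPM in high cells and 0.25 CPM in 0-count cells, and Ly6c2 at 0.54 CPM in high cells and 0.11 CPM in 0-count cells. The list's sum was 109 to 245 CPM in high cells and 26.6 to 195 CPM in 0-count cells, and it was higher in all 8 pools, by log2 ratios of 0.09 to 2.63. Averaged over pools, Csf3r alone made up most of this sum in both classes.

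Of 10 endothelial markers only Egfl7 was measured, at 237 CPM in high cells and 178 CPM in 0-count cells, and its ratio was 5.25 in KO 524s. The sum over the list was 132 to 354 CPM in high cells and 3.51 to 424 CPM in 0-count cells. Averaged over pools, Egfl7 made up most of it in both classes. The sum was higher in high cells in 6 of 8 pools, with a mean log2 ratio of 1.03. Its log2 ratio was 5.09 in KO 524s, which held 5 0-count cells, and −1.64 to 1.28 in the other pools. Oligodendrocyte markers, 4 of 10 measured, summed to 335 to 1174 CPM in high cells and 329 to 2190 CPM in 0-count cells, and were higher in 4 of 8 pools. Astrocyte markers, 4 of 10 measured, summed to 42.7 to 309 CPM in high cells and 49.4 to 298 CPM in 0-count cells. Dendritic cell markers, 3 of 10 measured, summed to 20.4 to 465 CPM in high cells and 4.84 to 459 CPM in 0-count cells. Lymphocyte markers, 1 of 12 measured, summed to 41.8 to 640.2 CPM in high cells and 11.6 to 154 CPM in 0-count cells. No mural cell, fibroblast or neuron marker was measured, and their sums reached 31.6, 43.1 and 37.3 CPM in high cells and 38.4, 128 and 523 CPM in 0-count cells. Ribosomal protein genes had a median of −0.08 over 47 members, and mitochondrially encoded genes −0.09 over 11. The part of other cells' RNA in the ratios was not tested.

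**Figure D5:**
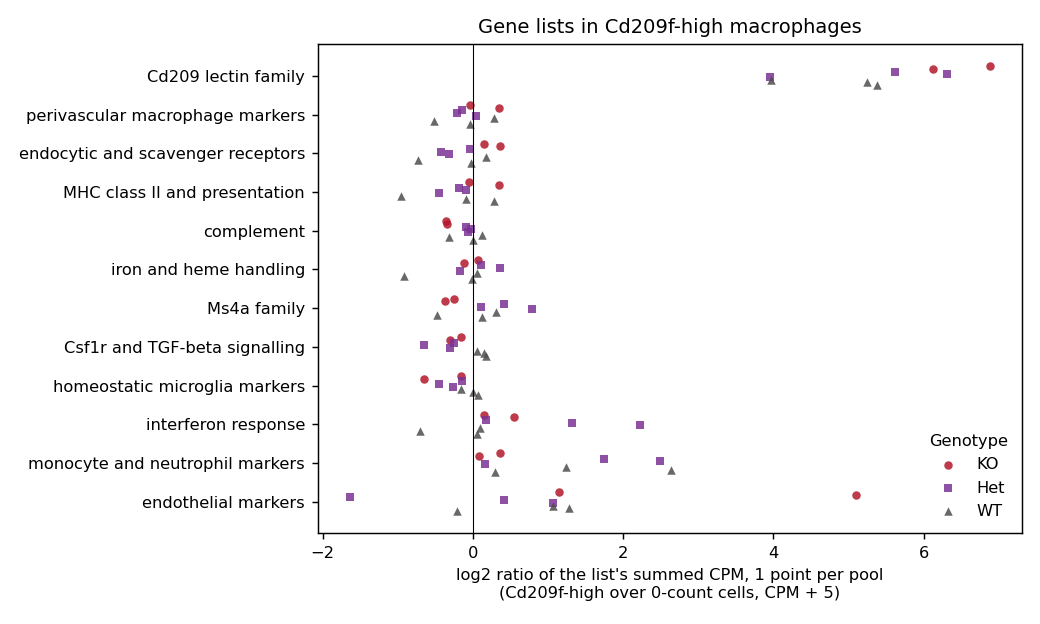
Log2 ratio of the summed CPM of 12 gene lists (Cd209f-high over 0-count cells, CPM + 5), with 1 point per pool and KO, Het and WT pools marked by shape and colour. The Cd209 family, summed without Cd209f, lies at 3.96 to 6.89, and perivascular macrophage markers lie at −0.51 to 0.35.

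Cells labelled microglia gave another set in which the pairing of both lectin genes could be read. Of 184 microglia of the same depth limit, 49 (26.6%, exact 95% interval 20.4% to 33.6%) held at least 200 CPM of Cd209f, with a median of 799 CPM in those cells, and 68 had 0 counts. Median depth was 280060 gene counts in microglia and 239688 in macrophages. Cd209g had counts in 33 of the 49 and in 5 of the 68 cells. In the 4 pools with at least 3 cells of each class its log2 ratio was 5.45 in KO 060s, 4.29 in KO 524s, 2.78 in Het 529s and 3.90 in WT 059s. In KO 060s that was 295 CPM in high microglia, against 1.85 CPM in 0-count microglia, and in Het 529s 29.3 CPM, against 0 counts.

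Of 7488 genes measured in microglia, 226 (3.02%) were higher and 244 (3.26%) lower in all 4 pools by the same rule. Of the 15 genes higher in high macrophages, 1 was among the 226, Cd209g, and of the 16 lower genes none was among the 244. The sum of perivascular macrophage markers was higher in Cd209f-high microglia in all 4 pools by log2 ratios of 0.13 to 0.35, and Mrc1 by 0.14 to 1.04. Single markers varied. Cd163 ran from −0.31 in KO 524s to 3.42 in KO 060s, and Pf4 from 0.007 in Het 529s to 1.00 in KO 060s. The sum of homeostatic microglia markers ran from −0.20 to 0.04. Whether cells labelled microglia held RNA of another cell was not tested.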

How the data were processed

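The authors deposited 1 table of whole-number counts for 53546 gene symbols and 92 ERCC spike-ins in 629 cells, and every column was matched to its label by name. The aligner was STAR, per the submitters' processing notes. The genome build and annotation, how reads were counted and how cells were filtered are not given in the sources used here.

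Totals left out ERCC and Rn18s. Cells with at least 100000 counts were classed by Cd209f (at least 200 CPM, or 0 counts), and the counts of a class were summed in each of 8 pools holding at least 3 cells of both classes. The log2 ratio used CPM + 5, and pools were weighted equally. A gene was measured at a mean over both classes of 10 CPM and a count in 20% of all high and 0-count cells. It was set apart at a mean 2-fold ratio of the same sign in every pool. By rule the text names the Cd209 family, up to 15 genes apart in each direction, the 10 highest and 5 lowest correlations, and the best expressed members of 31 gene lists. Some further list members, such as Tmem119 and H2-Aa, were named outside that rule as markers. The naming rule skips the names of predicted, ribosomal, mitochondrial and sex-linked genes. A gene that the rule takes is not reported here, and the counts include it. The cells, rules and lists were chosen with earlier results of these data known, so the values are a description and no p-value is given.

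Shares carry exact Clopper-Pearson 95% intervals, and a count of 0 was given a floor of 3 counts. Reads can be PCR copies, so both cover counting error only. Python 3.11.15, pandas 2.3.3, numpy 2.4.6, scipy 1.17.1 and matplotlib 3.10.9 were used, and R 4.3.3 with edgeR 4.0.16 and DESeq2 1.42.0 gave scaling factors for alternatives. Promoters came from RefSeq (GRCm38.p6), and transcripts from GENCODE M21. The ratio was checked on simulated counts.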

Additional observations from a re-analysis of the deposited data

Results flagged for a closer look

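Among 60 groups of 8 pools, 6 held a pool far from the other 7. The limit used flags about 1 in 20 groups of unselected, normally spread values. The named genes were chosen on these same ratios and the pools differ in cell number, so that rate is no baseline here. The log2 ratio of Ptprc was 5.51 in Het 524s, that of Hltf 4.79 in Het 056s and that of Atad1 5.58 in Het 524s, each far above the other pools. Oxr1 stood at 0.057 in WT 529s, far below the others. Summed iron and heme genes were at −0.92 in WT 529s, and summed endothelial markers at 5.09 in KO 524s. Het 524s had 4 cells and WT 529s 3 cells in the smaller class. Outside the comparisons, 2 of 3 cells of the type labelled 7 with at least 100000 counts held at least 200 CPM of Cd209f.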

How the results depend on the processing

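Cd209g was higher in every pool used, and first of the measured genes by its lowest pool, in all 25 alternatives, with means of 3.81 to 7.43. The gene counts were less stable. The number of higher genes, 15, became 6 with Rn18s kept in the total, 5 without each gene's top cell, 6 with cells under 20 CPM of Cd209f as the lower class and 8 with a pseudocount of 20 CPM. The number of lower genes, 16, became 21 with Rn18s kept in the total, 6 without the top cell, 24 with cells under 20 CPM of Cd209f as the lower class, 10 with a Cd209f limit of 100 CPM and 8 with a pseudocount of 20 CPM. With fewer pools a gene has fewer signs to match, so counts grow by construction. Cells of at least 200000 counts left 4 pools with 197 higher and 172 lower genes, and pools of at least 5 and at least 10 cells of each class, alternatives chosen after seeing the data, gave 90 and 190 higher and 78 and 148 lower genes. Leaving out each pool in turn gave 23 to 35 higher and 19 to 36 lower genes. Eaf1 turned to 0.22 without the top cell. The cause of the other changes was not tested. Leaving out each pool gave shares of 50.0% to 55.4% in KO, 21.3% to 37.5% in Het and 29.7% to 38.7% in WT, and under every other alternative run each genotype's share stayed within its interval. High and 0-count cells were compared within each pool, and no test with a replicate block was run. Cell number limits the reading of single genes, since 2 pools held 3 high cells each.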
